A study of Mus musculus with 6 samples.

Results

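Acetylcholine receptors were followed as 10 genes of the 32531 in the count tables, 4 muscarinic and 6 nicotinic. The muscarinic genes were Chrm1, Chrm2, Chrm3 and Chrm4. Of the nicotinic subunit genes, Chrna4, Chrna7 and Chrnb2 were taken as subunits of the thalamus, and Chrna3, Chrnb3 and Chrnb4 as subunits of the habenula, a small nucleus that borders the thalamus. The genes were chosen by name, but with earlier results of these data known, so counts of them are not those of a blind choice. All 10 were found and passed the filter on low counts.

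The samples were thalamus of untreated adult Slc17a6-EGFP/Rpl10a mice of line JX883, profiled by translating ribosome affinity purification. In this method a ribosomal protein carries an EGFP tag in chosen cells, and tagged ribosomes with their RNA are pulled from homogenised tissue by anti-EGFP antibodies. Every sample came from this 1 transgenic line, whose tag is Rpl10a and whose name refers to Slc17a6, the vesicular glutamate transporter VGLUT2 of thalamic relay neurons. The series held 3 immunopurified libraries (IP) and 3 Input libraries, numbered 1 to 3 in each group, with lane numbers 3, 8 and 4 for replicates 1, 2 and 3. For Input the labelled molecule is also ribosomal-bound RNA, and taking Input as RNA of the whole dissected tissue is an assumption. The labels do not give the number, age in weeks or pooling of the animals. Nothing therefore shows that libraries of a group came from separate animals, and p-values speak only of the spread between libraries, part of which may be technical.

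Acetylcholine acts on muscarinic receptors, which are coupled to G proteins, and on nicotinic receptors, which are ion channels built of several subunits. Chrm1 and Chrm3 signal mainly through Gq proteins, which activate phospholipase C, and Chrm2 and Chrm4 through Gi proteins, which lower cyclic AMP and open potassium channels. In the thalamus, cholinergic fibres from the brainstem depolarise relay neurons and inhibit neurons of the reticular nucleus. Receptors of Chrna4 and Chrnb2 products are the most widespread nicotinic channels of the brain, whereas Chrna3 and Chrnb4 are best known from autonomic ganglia and the medial habenula.

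The libraries held between 44081149 and 54421395 gene reads, and 3 reads corresponded to between 0.0551 and 0.0681 CPM (gene counts scaled to library size). Levels below are CPM scaled by TMM factors (a correction for RNA composition), and every interval or floor from reads covers counting error only. Slc17a6 was at 6490, 2190 and 2200 CPM in IP replicates 1, 2 and 3 and at 3150, 875 and 477 CPM in Input replicates 1, 2 and 3. The log2 fold change of Slc17a6, always given as IP minus Input, was 1.27 ± 0.68 (SE) and missed the threshold (edgeR quasi-likelihood, adjusted p = 0.206). A block for the replicate number brought it past the threshold, at 1.52 (edgeR adjusted p = 0.000246). Of 12 genes of thalamic glutamatergic neurons 4 were higher and 0 lower in IP, with summed levels of 7690 to 12400 CPM in IP and 2830 to 8370 CPM in Input. Of 12 GABAergic markers 7 were lower, with sums of 118 to 272 CPM in IP and 862 to 1450 CPM in Input. Gad1, which makes GABA, had a mean of 5.63 CPM in IP and 73.4 CPM in Input. Astrocyte, oligodendrocyte, microglial and vascular lists were lower for 9 of 10, 10 of 10, 9 of 10 and 6 of 9 tested genes. For scale, the same edgeR fit placed IP above Input for 9.6% of the 16496 genes and below it for 15.6%. The block shifted these shares to 15.9% and 19.2%. With the block, 6 thalamic glutamatergic genes were higher and 11 GABAergic markers lower. The astrocyte, oligodendrocyte, microglial and vascular counts were then 10, 10, 10 and 6. Mean levels in IP and Input were 5.11 and 124 CPM for the astrocyte gene Aqp4, 95 and 1230 CPM for the myelin gene Mbp, and 0.481 and 9.92 CPM for the microglial gene Cx3cr1, and Cldn5, a gene of brain endothelium, was at 0 reads in IP replicates 1 and 3. Libraries of replicates 1 and 3 stood apart, for different genes. Slc17a6 in Input replicate 1 was at 4.66 times the mean of Input replicates 2 and 3. In IP replicate 1 it was at 2.95 times the mean of IP replicates 2 and 3. In Input replicate 3, Neurod6, a transcription factor gene of cortical and hippocampal neurons, stood at 121 times the mean of Input replicates 1 and 2. Drd1, the dopamine receptor gene of striatal projection neurons, stood at 3.8 times that mean in Input replicate 3. IP replicate 3 also held 7.89 CPM of Neurod6, against 0.203 and 0.395 CPM in IP replicates 1 and 2.

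The habenula subunits were lower in IP than in Input, while no receptor gene was called higher. Of 10 receptor genes, 3 were lower and 0 higher in IP (edgeR quasi-likelihood test on group, Benjamini-Hochberg adjusted p under 0.05), against 15.6% lower and 9.6% higher of all 16496 genes tested, 25.2% in either direction. The count of higher receptor genes was also 0 at an unadjusted p under 0.05, with DESeq2 or limma-voom, and 2 with the replicate block, where 15.9% of all genes were higher and 19.2% lower, 35.1% in all. Values in IP lay wholly below those in Input for 4 of the 10 genes, against 25.0% of all genes tested, and wholly above for 0, against 19.9% (44.9% of all genes in either direction). The median log2 fold change of the 10 genes was -0.26, beside -0.04 over all genes tested. Tagging of a cell type, its number of cells, RNA per cell and any untagged RNA left in IP cannot be told apart in these bulk libraries.

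**Figure D1:**
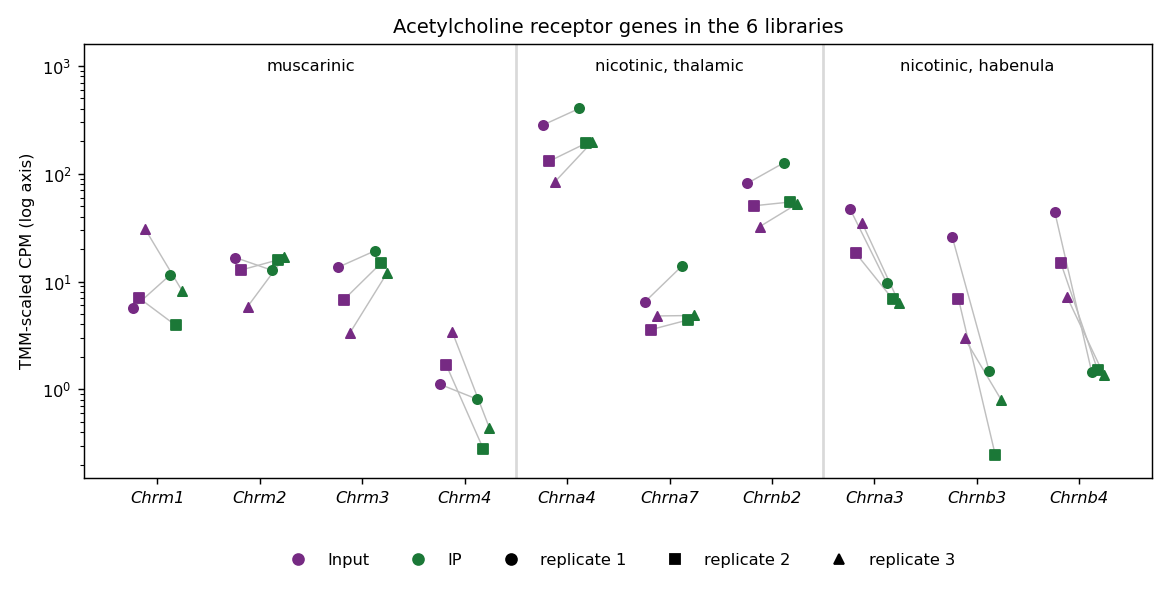
TMM-scaled CPM (log axis) of each receptor gene in the 6 libraries, with Input in purple on the left and IP in green on the right, marker shapes for replicate numbers and grey lines joining libraries of the same number. Chrna3, Chrnb3, Chrnb4 and Chrm4 have no overlap of the groups, and Chrna4 and Chrnb2 are highest in replicate 1 in both groups.

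Chrna4 encodes the alpha subunit of the common brain nicotinic receptor, and per kilobase of exon it had the highest level of the receptor genes in both groups. It lies on chromosome 2 from 181018380 to 181043546 (minus strand, GRCm38, the assembly of mm10). Its levels were 404, 191 and 195 CPM in IP replicates 1, 2 and 3, and 282, 130 and 84.1 CPM in Input replicates 1, 2 and 3. Replicate 1 was highest in both groups, the groups overlapped, and IP was above Input in 3 of 3 pairs, with log2 ratios of 0.52, 0.56 and 1.21. Without the block the log2 fold change of 0.67 ± 0.45 was not called (edgeR adjusted p = 0.318), and with it 0.76 ± 0.17 was (edgeR adjusted p = 0.0054). Leaving out Input replicate 1 gave 1.31, which passed (edgeR adjusted p = 0.0392), and leaving out the pair of replicate 1 gave 0.85, which also passed (edgeR adjusted p = 0.04). Without IP replicate 1 the value was 0.23, and without Input replicate 3 it was 0.36.

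Chrnb2 encodes the beta subunit that assembles with the Chrna4 product. It lies on chromosome 3 from 89746195 to 89764632 (minus strand), and 16.3% of its exonic length overlaps Adar on the opposite strand, so reads from that stretch cannot be assigned with certainty. The gene had 127, 54.7 and 52.2 CPM in IP replicates 1, 2 and 3 and 81.6, 50.4 and 32.3 CPM in Input replicates 1, 2 and 3. IP exceeded Input in 3 of 3 pairs, but the groups overlapped. The log2 fold change was 0.51 ± 0.42 (edgeR adjusted p = 0.421), and neither fit called it, since the blocked p was 0.0582. It was -0.02 once IP replicate 1 was left out. Per kilobase of exon, Chrna4 stood at 5.33, 5.83 and 6.22 times Chrnb2 in IP replicates 1, 2 and 3 and at 5.78, 4.3 and 4.34 times in Input replicates 1, 2 and 3, so that the groups overlapped in this ratio.

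Chrna7, on chromosome 7 from 63098692 to 63212569, encodes a subunit that forms channels of its own with high calcium permeability. Its levels were 13.9, 4.4 and 4.84 CPM in IP replicates 1, 2 and 3 and 6.48, 3.58 and 4.79 CPM in Input replicates 1, 2 and 3. Only IP replicate 1 stood above all Input libraries. At 0.64 ± 0.52 the log2 fold change was not called (edgeR adjusted p = 0.408), and it came to -0.09 when IP replicate 1 was left out.

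The genes Chrna3 and Chrnb4 lie side by side on the minus strand of chromosome 9, at 55010111 to 55026562 and 55028154 to 55048779, with 1591 bases between them. Chrnb3, on chromosome 8 from 27368711 to 27399730, encodes an accessory subunit that joins receptors with other alpha and beta subunits. The 250 bases before the RefSeq start of Chrna3 (GRCm38.p6, chr9:55026563-55026812, minus strand), a gene lower in IP, are shown with those before Chrnb2 (chr3:89764633-89764882, minus strand), a gene that was not called. Both are read 5′ to 3′ on the strand of the gene, and capitals mark every match to an E box (CANNTG) or a GC box (GGGCGG) on either strand.
Chrna3: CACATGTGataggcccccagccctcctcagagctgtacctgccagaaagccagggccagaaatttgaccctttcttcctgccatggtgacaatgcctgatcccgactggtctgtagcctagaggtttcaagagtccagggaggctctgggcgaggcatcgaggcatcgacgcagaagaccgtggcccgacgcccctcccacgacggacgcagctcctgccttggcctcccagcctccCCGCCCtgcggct
Chrnb2: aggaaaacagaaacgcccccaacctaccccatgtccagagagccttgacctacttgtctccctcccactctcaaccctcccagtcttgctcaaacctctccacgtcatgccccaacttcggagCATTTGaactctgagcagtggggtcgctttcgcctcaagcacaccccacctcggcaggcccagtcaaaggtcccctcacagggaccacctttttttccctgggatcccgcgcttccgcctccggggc
The Chrna3 window held 2 E boxes, which overlap each other at its far end, and 1 GC box close to the start. In the Chrnb2 window there were 1 E box and 0 GC boxes. Among 32841 such windows of all genes, 66.2% held an E box and 32.7% a GC box, and neither window held a TATA box (TATAAA, 12.4% of windows), a CCAAT box (CCAAT, 33.9%), a homeobox core (TAATTA, 4.84%) or a cAMP response element (TGACGTCA, 1.55%). The GC content was 63.2% for Chrna3 and 59.6% for Chrnb2, against a median of 52.4% over all windows. Windows were found for 8 of the 10 genes.

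Chrnb4 encodes the beta subunit of ganglionic and habenular nicotinic receptors and had, with Chrnb3, the lowest fold changes of the 10 genes, which differed from each other by less than their SE. It had 1.46, 1.5 and 1.36 CPM in IP replicates 1, 2 and 3 (72, 80 and 74 reads) and 44.4, 14.8 and 7.2 CPM in Input replicates 1, 2 and 3 (2040, 721 and 317 reads). The IP libraries were close to each other, and all Input libraries lay above them, with Input replicate 1 highest. On average the Input level was 15.3 times the IP level, a log2 fold change of -3.94 ± 0.64 (edgeR adjusted p = 0.00399). Without Input replicate 1 the value was -2.92 (edgeR adjusted p = 0.00651). The Input level was 14.2 times the IP level for Chrnb3, 13 times for Gad1 and for Mbp, 20.6 for Cx3cr1 and 24.3 for Aqp4. Whether the IP reads of Chrnb4 and Chrnb3 came from cells without the tag was not tested.

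Chrnb3 had 1.48, 0.245 and 0.791 CPM in IP replicates 1, 2 and 3 (73, 13 and 43 reads) and 25.8, 6.92 and 2.97 CPM in Input replicates 1, 2 and 3 (1185, 338 and 131 reads). Every Input library was above every IP library, and Input replicate 1 was again highest. The gene fell by 3.82 ± 0.92 on the log2 scale (edgeR adjusted p = 0.0174). This call ended without Input replicate 1 (-2.55, edgeR adjusted p = 0.0618), without IP replicate 2 (-3.37, 0.0534), without IP replicate 3 (-3.77, 0.0565), without both libraries of replicate 2 (-3.66, 0.091) and by limma-voom (-3.62, 0.0551). Leaving out IP replicate 1 kept it, at -4.5 (edgeR adjusted p = 0.0277), and so did the block, at -3.61 (edgeR adjusted p = 0.00116).

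Chrna3 encodes the alpha subunit that pairs with the Chrnb4 product in ganglia and habenula. It had 9.69, 6.83 and 6.35 CPM in IP replicates 1, 2 and 3 and 47.5, 18.2 and 34.9 CPM in Input replicates 1, 2 and 3. IP was below Input in all libraries, and here Input replicate 2 was the lowest Input library, whereas Input replicate 3 was lowest for Chrnb3 and Chrnb4. Chrna3 fell by 2.14 ± 0.37 on the log2 scale (edgeR adjusted p = 0.00515), and the mean Input level was 4.4 times that of IP. Chrna3 and Chrnb4 passed in 19 of 19 other ways of scaling, filtering, fitting or leaving out libraries, with log2 fold changes from -2.68 to -1.79 and from -4.48 to -2.92.

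**Figure D2:**
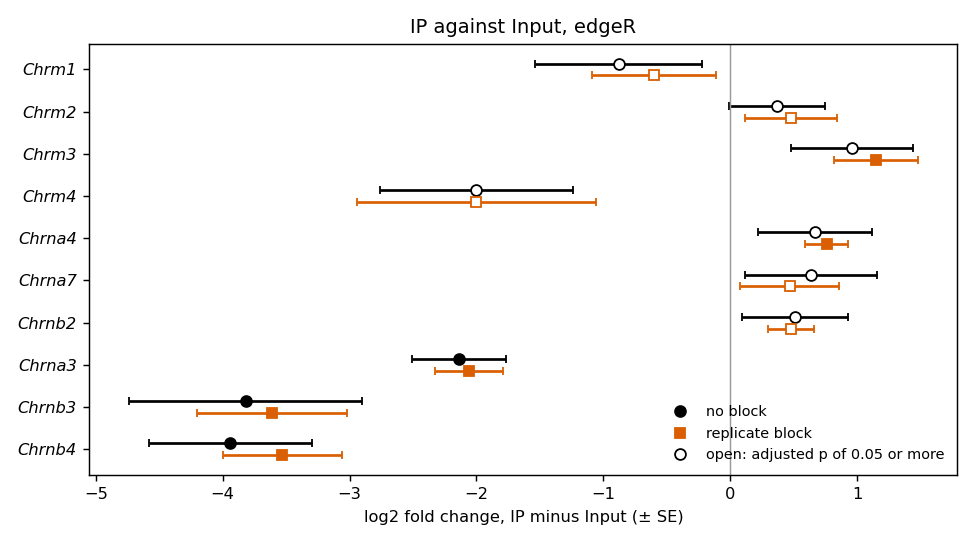
Log2 fold change of IP minus Input with its SE (horizontal axis) for the 10 receptor genes, from edgeR without the block (black circles) and with the replicate block (orange squares), filled where the adjusted p is under 0.05. Chrna3, Chrnb3 and Chrnb4 are filled in both fits, between -2.06 and -3.94, and Chrna4 and Chrm3 with the block only.

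Habenula markers were lower in IP as well. Of 12 markers, the receptor genes not among them, 6 were lower and 0 higher (8 and 0 at an unadjusted p under 0.05, 7 and 0 with the replicate block and by DESeq2, 6 and 0 with limma-voom). Over all genes tested, 15.6% were lower and 9.6% higher. These markers were chosen with earlier results of these data known, so they are no independent check on the receptor genes. Their median log2 fold change was -1.43. Their summed level was 112 to 148 CPM in IP and 209 to 499 CPM in Input, and no marker was at 0 reads in any library. Gpr151, an orphan receptor of habenula neurons, had 37.9, 8.6 and 4.68 CPM in Input replicates 1, 2 and 3 and 10.6, 6.64 and 3.84 CPM in IP replicates 1, 2 and 3. For Gpr151 the log2 fold change was -1.28 ± 0.72 and was not called (edgeR adjusted p = 0.23). Input replicate 1 was highest and Input replicate 3 lowest for Gpr151, Chrnb3 and Chrnb4. Slc17a6, Chrna4, Chrnb2, Chrm2 and Chrm3, which are outside the habenula subunits and markers, had the same order. Gpr151 in Input replicate 1 stood at 5.71 times the mean of Input replicates 2 and 3, whereas the median of this ratio over the 12 habenula markers was 1.59. The part of the amount of habenula tissue in these receptor values was not tested.

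**Figure D3:**
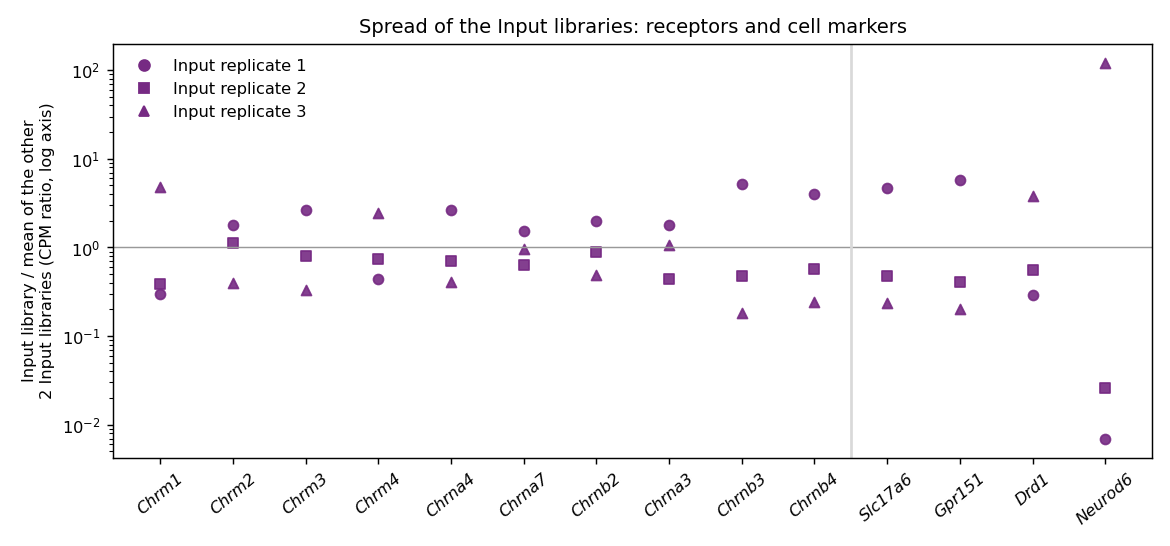
Level in each Input library divided by the mean of the other Input libraries (log axis), for the 10 receptor genes and, right of the line, Slc17a6, Gpr151, Drd1 and Neurod6. Input replicate 1 is highest for Chrnb3 and Chrnb4 at 5.21 and 4.04, beside 5.71 for Gpr151 and 4.66 for Slc17a6, and Input replicate 3 for Chrm1 and Chrm4 at 4.84 and 2.43, beside 3.8 for Drd1.

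Set against each other within each library, the thalamic subunits stood farther above the habenula subunits in IP than in Input. The mean log2(CPM + 0.5) of Chrna4, Chrna7 and Chrnb2 minus that of Chrna3, Chrnb3 and Chrnb4 was 4.73, 4.07 and 3.9 in IP replicates 1, 2 and 3 and 0.51, 1.23 and 1.32 in Input replicates 1, 2 and 3. The groups did not overlap, and IP exceeded Input by 4.22, 2.84 and 2.58 in the pairs, with a mean of 3.22 ± 0.88 (SD, n = 3). The median log2 fold change was 0.64 for the thalamic subunits, with 0 called without the block, and -3.82 for the habenula subunits. The difference therefore mainly restates the fall of the habenula subunits given above. No p is given for this difference over chosen genes. With 3 libraries against 3 an exact two-sided permutation test could not have gone below 0.1.

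Per kilobase of exon, the habenula subunits made up 2.44%, 3.68% and 3.55% of the summed level of the 6 nicotinic genes in IP replicates 1, 2 and 3, and 27%, 20.7% and 29.4% in Input replicates 1, 2 and 3. Chrna4 gave the largest share throughout, 80.4% ± 0.786 in IP and 59.4% ± 4.3 in Input (SD, n = 3). A smaller habenula share by itself raises the shares of the thalamic subunits. Chrnb2 held 13.9% ± 0.947 and 12.6% ± 2.04, and Chrna7 2.45% ± 0.522 and 2.32% ± 1.01 (SD, n = 3), and neither share separated the groups. Among the beta subunits the change was large, since Chrnb2 stood at 38.5, 16.1 and 17 times Chrnb4 in IP replicates 1, 2 and 3 and at 0.817, 1.52 and 1.99 times in Input replicates 1, 2 and 3. The ratio of Chrna3 to Chrnb4, per kilobase, was 4.69, 3.21 and 3.3 in IP and 0.758, 0.872 and 3.43 in Input, so that Input replicate 3 fell among the IP libraries.

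**Figure D4:**
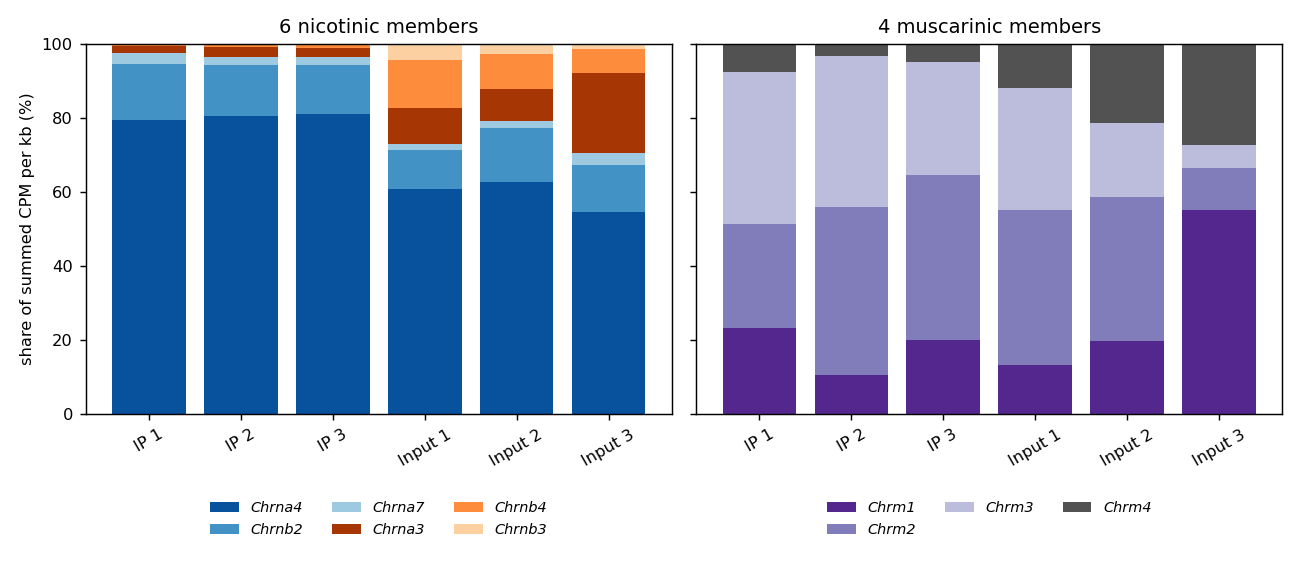
Share of each gene in the summed CPM per kilobase of exon (vertical axis, percent) of the 6 nicotinic genes on the left and the 4 muscarinic genes on the right, in each of the 6 libraries. The habenula subunits, in orange tones, fill 20.7% to 29.4% of the Input bars and at most 3.68% of the IP bars, and Chrm1 fills 55.2% of the muscarinic bar in Input replicate 3.

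Per kilobase, muscarinic receptor genes were at lower levels than Chrna4 and Chrnb2 in IP, and none was called in either direction (0 higher and 0 lower of 4 by edgeR and limma-voom, 1 lower at an unadjusted p under 0.05 and by DESeq2, 1 higher with the replicate block). Chrm3, a Gq-coupled receptor gene on chromosome 13 from 9875486 to 10360847, had 19.2, 14.7 and 11.9 CPM in IP replicates 1, 2 and 3 and 13.5, 6.78 and 3.34 CPM in Input replicates 1, 2 and 3. It was higher in IP in 3 of 3 pairs, with log2 ratios of 0.51, 1.11 and 1.84, and the groups overlapped only through Input replicate 1. Its log2 fold change was 0.96 ± 0.48 without the block (edgeR adjusted p = 0.179) and 1.15 ± 0.33 with it, which was called (edgeR adjusted p = 0.0197). Leaving out Input replicate 1 gave 1.6, also called (edgeR adjusted p = 0.0341), and leaving out Input replicate 3 gave 0.6, which was not (edgeR adjusted p = 0.28).

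Chrm2, the Gi-coupled receptor gene on chromosome 6 from 36388084 to 36528414, had 12.7, 15.9 and 16.9 CPM in IP replicates 1, 2 and 3 and 16.7, 12.8 and 5.84 CPM in Input replicates 1, 2 and 3. The IP libraries were within the range of the Input libraries but for replicate 3, and 2 of 3 pairs were higher in IP. Its log2 fold change was 0.37 ± 0.38 (edgeR adjusted p = 0.529), and -0.03 without both libraries of replicate 3.

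Chrm1, a Gq-coupled receptor gene that is abundant in cortex, hippocampus and striatum, lies on chromosome 19 from 8663789 to 8683587. It had 11.4, 3.91 and 8.24 CPM in IP replicates 1, 2 and 3 and 5.63, 7.04 and 30.7 CPM in Input replicates 1, 2 and 3. Input replicate 3 was at 4.84 times the mean of Input replicates 1 and 2, and the 3 pairs gave log2 ratios of 1.01, -0.85 and -1.9. No call resulted, with a log2 fold change of -0.88 ± 0.66 (edgeR adjusted p = 0.371), which turned to 0.32 on leaving out Input replicate 3 (edgeR adjusted p = 0.662). A fit with the block that left out the pair of replicate 1, added after seeing the data, called Chrm1 lower, at -1.38 (edgeR adjusted p = 0.0217).

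Chrm4, the Gi-coupled receptor gene of striatal projection neurons, on chromosome 2 from 91927249 to 91928688, had the fewest reads of these 4 muscarinic genes. It had 0.811, 0.282 and 0.441 CPM in IP replicates 1, 2 and 3 (40, 15 and 24 reads) and 1.11, 1.68 and 3.38 CPM in Input replicates 1, 2 and 3 (51, 82 and 149 reads). The groups did not overlap, and Input replicate 3 was the highest library. At -2 ± 0.76 its log2 fold change missed the threshold in edgeR (adjusted p = 0.0873 without and 0.124 with the block) and passed by DESeq2 (-2.03, adjusted p = 0.0306). Without Input replicate 3 it was -1.43 (edgeR adjusted p = 0.214).

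Input replicate 3 held the highest levels of Chrm1 and Chrm4 together with those of striatal and cortical genes. The 10 striatal markers summed to 390, 549 and 1420 CPM in Input replicates 1, 2 and 3 and to between 527 and 579 CPM in IP, and the 12 cortex and hippocampus markers to 1150, 1060 and 2060 CPM in Input replicates 1, 2 and 3 and between 1240 and 1510 CPM in IP. None of these markers was at 0 reads in any library. Their part in the Chrm1 and Chrm4 values was not tested. In the 4-gene muscarinic sum per kilobase, Chrm1 took 55.2% in Input replicate 3, against 10.5% to 23.4% in the other libraries, and Chrm3 took 6.22% there, against 19.9% to 41% elsewhere.

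Per kilobase of exon, the order of mean levels in IP was Chrna4 (52.4 ± 24.3 CPM per kb, SD, n = 3), Chrnb2 (9.29 ± 5.04), Chrm2 (2.51 ± 0.362), Chrm3, Chrna7, Chrna3, Chrm1, Chrnb4 (0.387 ± 0.0197), Chrm4 and Chrnb3 (0.132 ± 0.0972). Chrna4 lay above Chrnb2, Chrnb2 above Chrm2, and Chrm1 above Chrnb4 without overlap of the libraries, and the ranges of all other neighbours in that order overlapped. In Input the order was Chrna4 (32.9 ± 20.7 CPM per kb, SD, n = 3), Chrnb2 (6.54 ± 2.98), Chrna3 (6.37 ± 2.8), Chrnb4 (5.94 ± 5.28), Chrm1, Chrm2, Chrnb3, Chrm4, Chrm3 and Chrna7 (1.1 ± 0.323), and only Chrna4 was clear of its neighbour. For Chrm4 the annotated length of 1440 bases is that of a single exon, so its level per kilobase is too high if the authors counted further exons. Chrm1 to Chrm4 together reached 0.109 ± 0.0309 of the sum of the 6 nicotinic genes in IP and 0.161 ± 0.107 in Input (SD, n = 3), with overlapping groups.

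The other acetylcholine receptor genes, Chrm5 and further nicotinic subunits, had few reads. Of 11, 4 had enough reads for the test and 0 were called (1 lower at an unadjusted p under 0.05 and by DESeq2, 0 by limma-voom and with the replicate block). Chrna1, the alpha subunit of the muscle receptor and the one with the most reads, had 0.71, 0.922 and 0.441 CPM in IP replicates 1, 2 and 3 and 1.04, 2.37 and 4.5 CPM in Input replicates 1, 2 and 3, with a log2 fold change of -1.93 ± 0.73 (edgeR adjusted p = 0.0856). Chrm5, a Gq-coupled muscarinic receptor gene, had 7, 20 and 37 reads in IP replicates 1, 2 and 3 and 52, 57 and 2 reads in Input replicates 1, 2 and 3, and was not called at -0.96 ± 1.15 (edgeR adjusted p = 0.586). Chrna5, named because it neighbours Chrna3 on chromosome 9, had 0, 0 and 5 reads in IP replicates 1, 2 and 3 and 29, 1 and 0 reads in Input replicates 1, 2 and 3. It encodes an accessory subunit of habenula receptors, and in GENCODE it lies 2331 bases from Chrna3. Chrnd and Chrng, subunits of the muscle receptor, had 0 reads in all 6 libraries.

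Genes that make, carry or break down acetylcholine were lower in IP for 5 of 8 and higher for 0 (lower for 6 and higher for 1 at an unadjusted p under 0.05 and by DESeq2, 5 and 0 with limma-voom, 5 and 1 with the replicate block). The median log2 fold change of the 8 was -2.7, and 15.6% of all genes tested were lower and 9.6% higher. Chat, the enzyme that makes acetylcholine, had 0.162, 0.245 and 0.736 CPM in IP replicates 1, 2 and 3 and 3.39, 4.73 and 2.57 CPM in Input replicates 1, 2 and 3, a fall of 3.21 ± 0.75 on the log2 scale (edgeR adjusted p = 0.0156). Slc5a7, the choline transporter of cholinergic terminals, also fell by 3.21, and it had 20.2, 6.82 and 3.7 CPM in Input replicates 1, 2 and 3. Slc44a1, a choline transporter of many cell types, fell by 2.26, and Bche, butyrylcholinesterase, by 1.97. The other gene called was Prima1, the membrane anchor of acetylcholinesterase, which fell by 3.15 and whose Input levels of 5.31, 4.97 and 25 CPM were highest in replicate 3. The calls of Chat and Bche ended without IP replicate 2 (edgeR adjusted p = 0.0578 and 0.0509) and without Input replicate 2 (0.0641 and 0.0529), and those of Chat, Bche and Slc5a7 without both libraries of replicate 1 or of replicate 2 (edgeR adjusted p from 0.0565 to 0.179). Ache, acetylcholinesterase, went the other way, with 38.1 CPM in IP and 21.3 CPM in Input on average, and passed only with the replicate block (edgeR adjusted p = 0.0735, and 0.0231 with the block). The 6 cholinergic neuron markers summed to 2.09 to 4.95 CPM in IP and 23.2 to 41.9 CPM in Input, with 1 of them at 0 reads in each IP library and in Input replicate 3. That list shares Chat, Slc5a7 and Slc18a3 with the list above, and the part of cholinergic cells in these values was not tested.

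Among genes whose products help nicotinic receptors to assemble or adjust their function, 4 of 10 tested were higher in IP and 0 lower (7 and 0 at an unadjusted p under 0.05 and by DESeq2, 6 and 0 with limma-voom, 9 and 0 with the replicate block). Their log2 fold changes had a median of 0.88, and 9.6% of all genes tested were higher and 15.6% lower. Ly6h, a prototoxin-like membrane protein that acts on nicotinic receptors, had 29.9, 20.4 and 22.9 CPM in IP replicates 1, 2 and 3 and 7.39, 11 and 5.52 CPM in Input replicates 1, 2 and 3, and rose by log2 1.62 ± 0.32 (edgeR adjusted p = 0.00815). Lypd6b and Ly6e, of the same family, rose by log2 1.24 and 0.93, and Vsnl1, a calcium sensor, by 0.79. With counts scaled on pan-neuronal genes, as described below, Ly6e, Lypd6b and Vsnl1 were at 0.36, 0.68 and 0.21 and did not pass (edgeR adjusted p = 0.239, 0.129 and 0.493). Single libraries also ended the Ly6e call (Input replicate 2 or IP replicate 3, edgeR adjusted p = 0.0566 and 0.0572), the Lypd6b call (IP or Input replicate 2, 0.0616 and 0.0514) and that of Vsnl1 (Input replicate 1, IP or Input replicate 2, or IP replicate 3, 0.0584 to 0.104). Library totals and upper-quartile factors ended the Vsnl1 call too (edgeR adjusted p = 0.0525 and 0.0509). Lynx1, which slows nicotinic receptors, averaged 1010 CPM in IP and 654 CPM in Input and passed only with the replicate block (edgeR adjusted p = 0.0848, and 0.0216 with the block). The chaperone gene Ric3 was lower in IP in 3 of 3 pairs and not called, at -0.32 ± 0.4 (edgeR adjusted p = 0.606). Tmem35, another chaperone gene, was at 1.02 ± 0.56 and passed only with the block (edgeR adjusted p = 0.216, and 0.0052 with the block).

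Genes downstream of the muscarinic receptors were taken in separate Gq and Gi lists, and 9.6% of all genes tested were higher and 15.6% lower. Of 16 genes of the Gq pathway, 0 were higher and 1 lower (2 and 2 at an unadjusted p under 0.05 and with the replicate block, 1 and 2 by DESeq2, 1 and 1 with limma-voom). The median over the 16 was 0.16. Plcb3, a phospholipase C, fell by 2.14, from 4.98 to 1.13 CPM on average (edgeR adjusted p = 0.0366), and the call ended without Input replicate 1, IP replicate 3 or replicate 2 of either group (edgeR adjusted p from 0.0836 to 0.118). Prkcb, a protein kinase C gene with the most reads of the list, was not called at -0.54 ± 0.34 (edgeR adjusted p = 0.276), and its 1090 CPM in Input replicate 3 stood against 444 and 447 CPM in Input replicates 1 and 2. Of 16 genes of the Gi pathway, 5 were higher and 0 lower (6 and 3 at an unadjusted p under 0.05, 5 and 2 by DESeq2, 5 and 0 with limma-voom, 7 and 2 with the replicate block), and the median was 0.38. Gnaz and Gng2, a G protein alpha and a gamma subunit, rose by log2 1.3 ± 0.24 and 1.02 ± 0.17 (edgeR adjusted p = 0.00618 and 0.00458). Gnai2 and Gnao1, further alpha subunits, and Rgs7, a brake on Gi signalling, rose by 0.82, 0.52 and 0.72. With pan-neuronal scaling Gnao1 was at -0.05, and Gng2, Gnai2 and Rgs7 did not pass (edgeR adjusted p from 0.0969 to 0.583). The calls of Gnao1 and Rgs7 also ended on leaving out replicate 2 of either group or IP replicate 3 (edgeR adjusted p from 0.069 to 0.124), and that of Gnai2 without Input replicate 2 (edgeR adjusted p = 0.0611). Leaving out the pair of replicate 2 ended the calls of Gng2 and Gnaz as well (edgeR adjusted p = 0.0952 and 0.091). Gnao1 did not pass with library totals or upper-quartile factors (edgeR adjusted p = 0.0701 and 0.0659).

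**Figure D5:**
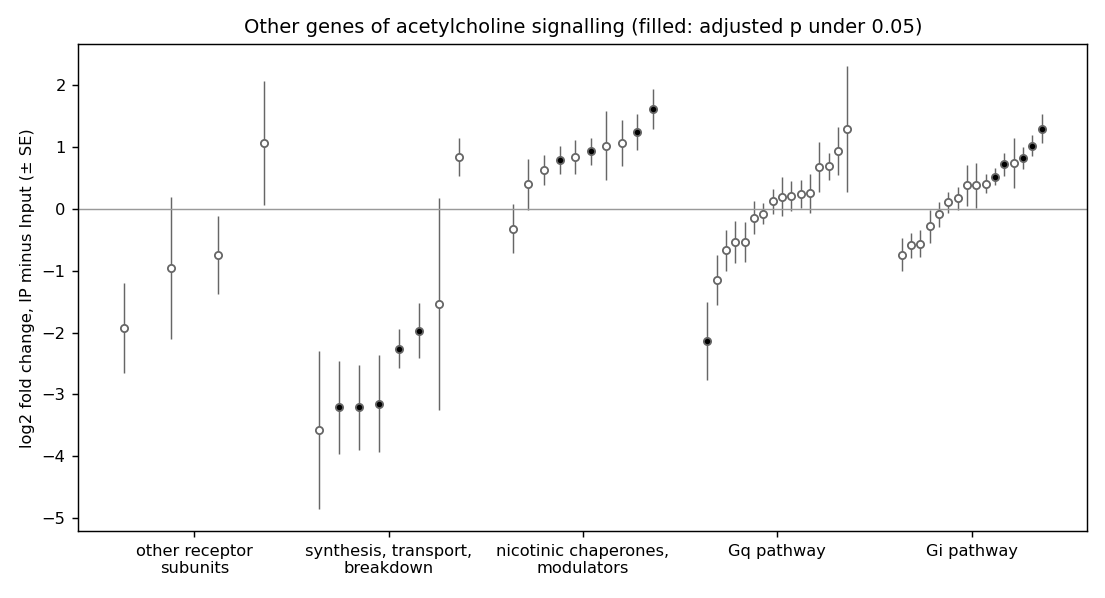
Log2 fold change of IP minus Input with its SE (vertical axis) for the tested genes of 5 lists of acetylcholine signalling, sorted within each list and filled where the edgeR adjusted p is under 0.05. The list of synthesis, transport and breakdown has 5 filled points below 0, and the list of nicotinic chaperones and modulators 4 above 0.

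The receptors were compared again with counts scaled on the summed reads of 24 pan-neuronal genes, of which 8 were higher and 1 lower in IP with TMM factors. This scaling moved the median log2 fold change of all genes by -0.57. On that scale 1.41% of all genes were higher and 29.8% lower in IP, 31.2% in all (232 and 4921 genes, against 1583 and 2566 with TMM factors). Chrna4, Chrna7 and Chrnb2 were at 0.13, 0.1 and -0.04, Chrm2 and Chrm3 at -0.21 and 0.41, and Chrm1 at -1.45, and none of these passed. Chrna3, Chrnb3 and Chrnb4 were at -2.68, -4.36 and -4.48 and passed (edgeR adjusted p = 0.000851, 0.00654 and 0.00103), as did Chrm4 at -2.57 (edgeR adjusted p = 0.033).

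Genes with the most similar pattern over the 6 libraries were sought by the distance between centred log2(CPM + 0.5) values. The candidates were the 10323 genes whose mean reached 5 CPM and whose name matched a current gene symbol. For Chrna4 these were Cnih1, Lrrn2 and Bcap31, at distances of 0.218, 0.222 and 0.231 in log2 units. Lrrn2 had 269, 109 and 110 CPM in IP replicates 1, 2 and 3 and 170, 73.6 and 53.9 CPM in Input replicates 1, 2 and 3. For Chrna3 they were Skap2, Cobll1 and Arsg, at 0.374, 0.459 and 0.491, and for Chrm4 they were Cep250, C130071C03Rik and Limd1, at 0.429, 0.436 and 0.439. The points of each comparison are only 6 libraries in 2 groups, and they share the difference between the groups and the libraries that stand apart.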

How the data were processed

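RNA sequencing libraries of mouse thalamus, 3 IP and 3 Input, were grouped by their titles. The authors deposited 1 table of read counts per gene for each library, and the submitters' processing notes name mm10, STAR 2.0.0e and HTSeq. The annotation, counting mode and use of strand were not given in the sources used here. Library sizes counted gene reads only, without the summary rows, whose shares separated the groups. Reads with no feature made up 7.6% to 7.9% in IP and 14% to 17.7% in Input. Ambiguous reads made up 1.5% to 1.9% in IP and 7.4% to 13.2% in Input. Reads aligned at more than 1 place made up 38.5% to 45% in IP and 23.6% to 27.2% in Input. The part of these differences in the fold changes was not tested. Genes were kept by filterByExpr. TMM factors set the scale, and edgeR 4.0.16 in R 4.3.3 gave two-sided quasi-likelihood tests of IP against Input, with Benjamini-Hochberg adjusted p over 16496 genes and a threshold of 0.05. The test script was tested on simulated data. DESeq2 1.42.0 and limma-voom (limma 3.58.1) were alternatives.

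IP and Input libraries with the same number departed from their group means in a shared way (r = 0.271, 0.113 and 0.141 across genes for replicates 1, 2 and 3). For libraries of different numbers r was -0.201 to 0.00549. The numbers, from the titles, were therefore taken to pair the libraries. Libraries of the same number also share a lane number, so a shared sample and a shared lane cannot be told apart here. The fit without the block stayed the main one, since the labels state no paired test. Lengths are merged exons of GENCODE M21, and promoter windows are from RefSeq on GRCm38.p6. From each pathway list at most 4 called genes with the smallest adjusted p and the most abundant gene were named. Ache, Prima1, Chrm5, Lynx1, Ric3, Tmem35, Chrna5, Chrnd and Chrng were added after their values were seen. The receptor genes and all lists were chosen with earlier results of these data known.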

Additional observations from a re-analysis of the deposited data

How the results depend on the processing

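With the replicate block 2 receptor genes were higher in IP (Chrna4 and Chrm3) and 3 lower. Without 1 library or replicate number, with or without the block, 0 to 2 were higher and 2 to 4 lower. The thalamic minus habenula difference was 2.71 to 3.53 without a replicate number, and 2.61 to 3.53 with other priors or summed levels. The fits that join the block with a left-out replicate number were added after seeing the data. In them Chrna4 passed in each of the 3 fits, at 0.55 to 0.89, Chrm3 did not without replicate 2 (edgeR adjusted p = 0.084), and Chrm1 was lower without replicate 1 (-1.38, edgeR adjusted p = 0.0217). Directions turned for Chrm1 without Input replicate 3 (0.32), without replicate 3 (0.28, and 0.1 with the block), for Chrm2 with pan-neuronal scaling (-0.21) and without replicate 3 (-0.03, with the block too), for Chrna7 without IP replicate 1 (-0.09), for Chrnb2 without IP replicate 1 (-0.02) and with pan-neuronal scaling (-0.04), for Prkcb without Input replicate 3 (0.04) or replicate 3 (0.03), and for Gnao1 with pan-neuronal scaling (-0.05). Apart from those that turned, the calls of receptor genes stayed on the same side of the threshold in 193 of 220 alternative values, passed newly in 13 and were lost in 5, all 5 of Chrnb3. Without 1 library or replicate number, and without the block, the ranges were -1.63 to 0.32 for Chrm1, -0.03 to 0.82 for Chrm2, 0.6 to 1.6 for Chrm3, 0.23 to 1.31 for Chrna4, -0.09 to 0.92 for Chrna7, -0.02 to 0.92 for Chrnb2 and -0.76 to 0.04 for Prkcb. The block changed no other receptor call. Of the 54 tested pathway genes, 9 were higher and 6 lower, beside 9.6% higher and 15.6% lower of all genes tested. The counts were 2 and 18 with pan-neuronal scaling, 19 and 9 with the replicate block, 14 and 11 by DESeq2, and 1 to 13 and 1 to 7 without 1 library or replicate number. Over all 16496 genes tested they were 1583 and 2566, with 232 and 4921 by pan-neuronal scaling and 2624 and 3163 with the replicate block. They were 2090 and 3263 by DESeq2 and 1742 and 2714 with limma-voom. Without 1 library or replicate number they were 83 to 1640 and 651 to 2598. The cause of these changes was not tested. Chrnb3 in IP (13 to 73 reads) and Chrm4 in IP (15 to 40 reads) have the largest counting error of the receptor genes.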
